A study of Arabidopsis thaliana with 8 samples.

Results

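Probe sets for the genes of the chloroplast and mitochondrial genomes were followed through shoots of 4 Arabidopsis thaliana genotypes. They were taken as the block of array identifiers whose leading number runs from 244901 to 245050, which holds 150 of the 22746 numbered probe sets in the table, whatever their suffix. The files and reference used here pair no identifier with a gene. Whether each of the 150 belongs to an organelle genome was therefore not checked, and no gene name or role is given to any of them. The values describe the block by its numbers, and the sequences of its probes or transcripts were not analysed here.

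The arrays held RNA from untreated shoots of 18-day-old plants of accession Columbia, kept at 20 °C, a humidity of 35% and days of 18 h. Each genotype was measured on 2 arrays labelled as biological replicates, and each replicate was a pool of 6 plants. The genotypes were wild type, the single mutant lhp1-4, the double mutant bpc4 bpc6 and the combination lhp1-4 bpc4 bpc6, called the triple mutant here. The labels name no further alleles. LHP1 is a chromodomain protein of Polycomb silencing and BPC4 and BPC6 are GAGA-binding proteins, and the series is about the recruitment of LHP1 to GAGA motifs by BPC6. Without gene names neither the mutated genes nor markers of shoot tissue could be checked against the labels.

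The plastid genome of land plants encodes core subunits of the photosystems, of the cytochrome complex between them, of the ATP synthase and of the NADH dehydrogenase-like complex. It also encodes the large subunit of Rubisco, subunits of its own RNA polymerase and ribosomal proteins. The mitochondrial genome encodes subunits of the respiratory complexes, cytochrome c maturation factors and ribosomal proteins. Both are transcribed with the help of nuclear-encoded polymerases, and the plastid polymerase needs nuclear-encoded sigma factors. Plastid genes are mostly co-transcribed in operons, so members of the block need not be independent of each other. Organelle transcripts mostly lack stable poly(A) tails, and kits of the kind named in the labels prime with oligo(dT). The signal therefore measures the organelle RNA that entered such an amplification, which need not be a fixed share of what the shoots held. In whole shoots, fewer cells of a type and less RNA per cell cannot be told apart.

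On the arrays as a whole the block was highest in wild type and lowest in the triple mutant. Each probe set was expressed as its log2 intensity minus its own mean over the 8 arrays. The median over the 150 members was 0.19 and 0.26 on the wild type arrays, 0.02 and 0.13 on the bpc4 bpc6 arrays, -0.08 and -0.06 on the lhp1-4 arrays and -0.16 and -0.28 on the triple mutant arrays. The pairs of arrays did not overlap between any of the genotypes in this median. Over all 22716 probe sets tested the same median ran only from -0.06 to 0.06. Among the 150 members 65 had their highest value on wild type replicate 2 and 50 on wild type replicate 1, while 64 had their lowest on triple mutant replicate 2 and 41 on replicate 1.

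**Figure D1:**
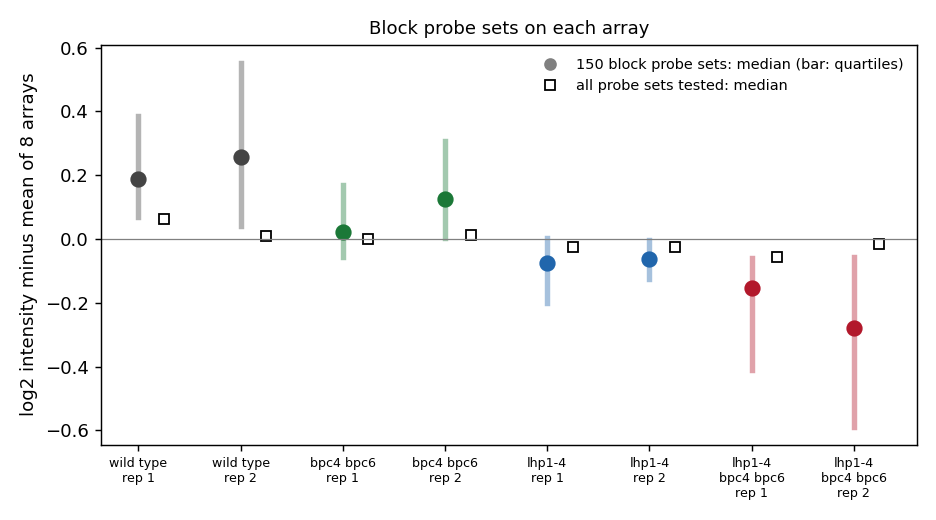
Median log2 intensity of the 150 block probe sets on each array, relative to each probe set's mean over the 8 arrays (filled points, with bars from the lower to the upper quartile), beside the median of all 22716 probe sets (open squares). The block falls from 0.19 and 0.26 in wild type to -0.16 and -0.28 in the triple mutant, while the open squares stay between -0.06 and 0.06.

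The order of the genotype means was the same in many members. The triple mutant was the lowest of the 4 genotypes in 111 of 150 members (74.0%), against 39.5% of all probe sets, and wild type was the highest in 109 (72.7%), against 40.3%. In 71 members (47.3%) the means descended from wild type over bpc4 bpc6 and lhp1-4 to the triple mutant, an order found in 16.1% of all probe sets. Replicates of the members differed by a median of 0.20 in wild type, 0.12 in lhp1-4 and 0.16 in each of the other genotypes on the log2 scale, each more than over all probe sets, where the medians were 0.10 to 0.15. The median intensity of an array ran from 54.7 to 58.3 and was 54.7 and 54.8 in wild type, 57.2 and 54.7 in bpc4 bpc6, 58.3 and 57.1 in lhp1-4 and 58.1 and 56.5 in the triple mutant, so that it was low in wild type, where the block was highest. Calls after each array was rescaled are given with the comparison of the triple mutant and wild type.

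The triple mutant was set against wild type to measure the combined effect of the lesions. In the triple mutant 59 members fell and 2 rose, at a limma adjusted p under 0.05, Benjamini-Hochberg adjusted over all 22716 probe sets within the comparison. That is 39.3% of the members falling and 1.33% rising, where 12.0% of all probe sets fell and 11.5% rose. The median log2 change of the 150 members was -0.43, a ratio of 0.740, with quartiles of -0.96 and -0.20, and the median over all probe sets was -0.09. Called falls of at least 2-fold were found in 31 of the 150 members and in 443 of all 22716 probe sets (1.95%). Both triple mutant arrays lay below both wild type arrays in 120 of the 150 members (80.0%), as they did in 43.0% of all probe sets. After each array was centred on its median, 74 members fell and 2 rose. Over all probe sets 15.42% then fell, and their median moved to -0.157. After quantile normalization 56 members fell and 3 rose, while 12.78% of all probe sets fell. Fewer members were called with any 1 array left out, and so were fewer of all probe sets, except without wild type replicate 2. The median of the members was then between -0.47 and -0.40.

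**Figure D2:**
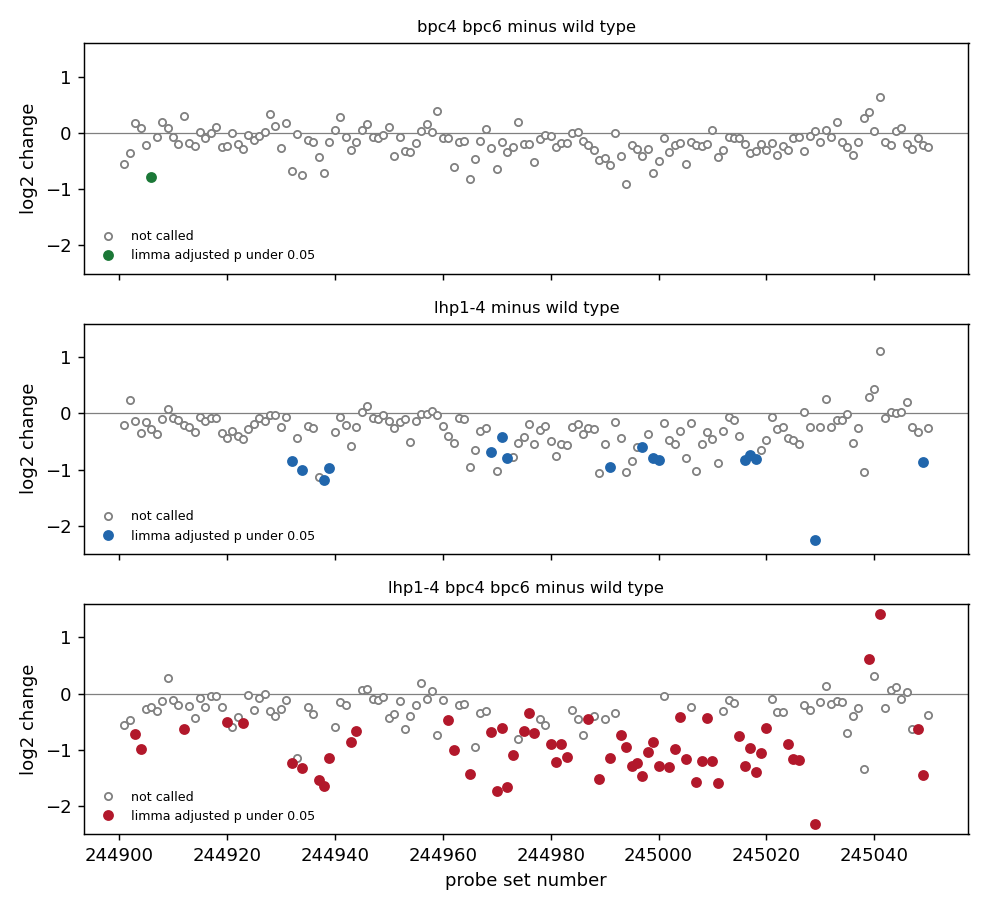
Log2 change from wild type of each of the 150 probe sets, plotted by probe set number, in bpc4 bpc6 (top), lhp1-4 (middle) and the triple mutant (bottom). Filled points have a limma adjusted p under 0.05, and they number 1, 16 and 61 from top to bottom, all but 2 of them below 0.

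In runs of 10 consecutive numbers, the 6 runs from 244961 to 245020 each held 5 to 9 members that fell in the triple mutant, with medians of -0.58 to -1.10 on the log2 scale. The run from 244931 to 244940 held 5, with a median of -1.14. In the 5 other runs up to 244960 between 0 and 2 members of 10 fell and medians were -0.13 to -0.30. These 5 runs were dim, with median intensities of 12.58 to 122.1 among members whose level could be read. Each of the 6 runs from 244961 to 245020 was brighter by this measure. Position and brightness thus varied together, and their effects were not tested apart. In the runs starting at 245021, 245031 and 245041, 4, 0 and 2 members fell and 0, 1 and 1 rose. Their medians were -0.33, -0.17 and -0.18. Over all probe sets 12.0% fell and 11.5% rose, with a median of -0.09. The 20 numbers from 245027 to 245046 were also set apart by hand, with the values known, because they may lie outside the organelle genomes. That reason and the limits of the run come from memory of the array's design and were not checked against any file. Of these 20 members 1 fell, 2 rose and their median was -0.15, while the 126 members before them held 56 falls and 0 rises with a median of -0.46. Without these 20 the remaining 130 members had 58 falls and 0 rises in the triple mutant. Whether these 20 probe sets belong to the organelle genomes was not tested.

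How far a member fell varied with its brightness. Brightness depends on the probes as well as on the transcript, so it sorts probe sets and does not rank genes by abundance. Of the 110 members whose level could be read, 20 of 25 with a mean intensity of 1000 to 5000 fell in the triple mutant, with a median log2 change of -1.04. Among members of 100 to 1000 it was 20 of 35, with a median of -0.96, and among those under 100 it was 7 of 32, with a median of -0.38. At 5000 or more 4 of 18 fell and the median was -0.36. Over all probe sets in the same 4 classes, in the same order, 23.5%, 18.0%, 10.3% and 6.48% fell, with medians of -0.06, -0.03, -0.11 and -0.08. The other 40 members stored all 8 values between 3 and 10, which can be a dim signal or a divided bright one, and 8 of them (20.0%) fell, with a median of -0.21, against 2.78% and a median of -0.10 over all 5007 such probe sets.

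**Figure D3:**
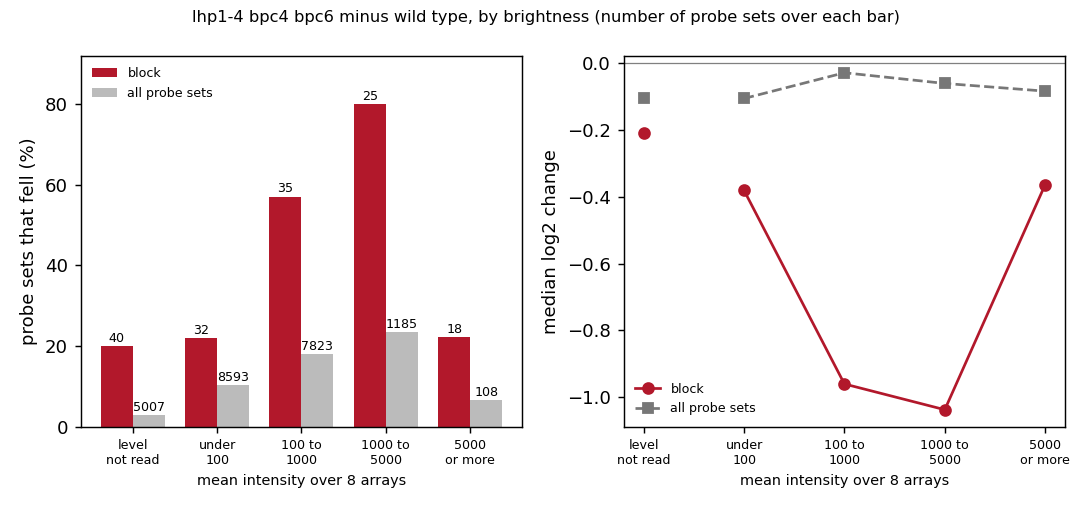
Share of probe sets that fell in the triple mutant against wild type (left, percent, number of probe sets over each bar) and median log2 change (right), by mean intensity over the 8 arrays, for the block and for all probe sets. The block's share is highest at 80.0% between 1000 and 5000 and is 22.2% at 5000 or more, and its median is below that of all probe sets in every class.

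At the bright end the changes were small, in the block and over all probe sets. At 5000 or more the quartiles over all probe sets were -0.19 and -0.02 in the triple mutant against wild type. Between 1000 and 5000 they were -0.38 and 0.24. The 5 brightest members of settled level were 245013_AT, 245014_AT, 244935_AT, 245006_AT and 245044_AT, with mean intensities of 22640, 19950, 18950, 16170 and 14230, and none of them had a call in any comparison. Probe set 245013_AT stood at 24035 and 23289 in wild type, 22831 and 22351 in lhp1-4, 21504 and 23535 in bpc4 bpc6 and 21843 and 21825 in the triple mutant. Its change in the triple mutant was -0.12 ± 0.09 on the log2 scale (SE over 2 arrays a genotype; adjusted p = 0.361 by limma). Both of its triple mutant arrays were below both wild type arrays. Of the 5, 245044_AT, which lies in the run of 20 numbers set apart above, alone was higher in the triple mutant than in wild type, at 15120 and 15016 against 13621 and 14102, with a log2 change of 0.12 ± 0.08 (limma adjusted p = 0.313). Among settled probe sets of the whole array 16 of the 100 brightest and 25 of the 200 brightest were members of the block.

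The dimmest members of settled level were 244901_AT, 245036_AT, 244956_S_AT, 245030_AT and 244914_AT, with mean intensities of 7.18 to 8.75. In each of them the level rests on 1 value of 10 to 100, the other 7 lying between 3 and 10, so their place at the bottom is uncertain. None had a call, and their log2 changes in the triple mutant ran from -0.56 in 244901_AT to 0.19 in 244956_S_AT.

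The largest fall of the block in the triple mutant was that of 245029_AT, which lies in the run of 20 numbers set apart above. It stood at 81.8 and 129 in wild type, 104 and 107 in bpc4 bpc6, 17.6 and 26.5 in lhp1-4 and 16.7 and 25.5 in the triple mutant. Both genotypes that carry lhp1-4 were low and both others were high, with no overlap. The log2 change from wild type was -2.32 ± 0.30 in the triple mutant (SE, n = 2; limma adjusted p = 0.00256), -2.25 ± 0.30 in lhp1-4 (limma adjusted p = 0.00942) and 0.03 ± 0.30 in bpc4 bpc6 (limma adjusted p = 0.966).

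The next largest fall, that of 244970_AT, was graded over the genotypes. Its intensities were 677 and 1044 in wild type, 447 and 648 in bpc4 bpc6, 405 and 420 in lhp1-4 and 239 and 267 in the triple mutant. Every mutant array lay below both wild type arrays, and the triple mutant was below both other mutants. The log2 change from wild type was -1.74 ± 0.24 in the triple mutant (limma adjusted p = 0.00325), and -1.03 ± 0.24 in lhp1-4 and -0.64 ± 0.24 in bpc4 bpc6, which were not called (limma adjusted p = 0.0574 and 0.248). One wild type value of this probe set was among those multiplied by 1000, and on the values as deposited the change has the opposite sign.

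The 2 rises were those of 245041_AT and 245039_AT, both within the run of 20. Probe set 245041_AT went from 45.3 and 39.8 in wild type to 124 and 104 in the triple mutant, with 107 and 77.9 in lhp1-4 and 86.4 and 51.0 in bpc4 bpc6. Its log2 change in the triple mutant was 1.41 ± 0.27 (limma adjusted p = 0.0102), a call that ended without triple mutant replicate 1 (limma adjusted p = 0.0554). Probe set 245039_AT rose from 190 and 166 to 262 and 282, with 218 and 216 in lhp1-4 and 247 and 217 in bpc4 bpc6, which is 0.61 ± 0.11 on the log2 scale (limma adjusted p = 0.00868). In both, all 6 mutant arrays lay above both wild type arrays, the opposite direction to most of the block.

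Fewer members fell in lhp1-4 alone, and whether their changes differ from those in the triple mutant is given by the comparison of these genotypes. In lhp1-4 16 members fell and 0 rose against wild type by limma, that is 10.7% falling, where 2.48% of all probe sets fell and 3.53% rose. An unadjusted p under 0.05 was found for 60 members (40.0%), against 22.0% of all probe sets. The median log2 change was -0.27, with quartiles of -0.54 and -0.11, against -0.07 over all probe sets. In 103 members (68.7%) both lhp1-4 arrays lay below both wild type arrays, which 40.0% of all probe sets did too. By brightness 6 of 25 members of 1000 to 5000 fell, 6 of 35 of 100 to 1000, 3 of 32 under 100, 0 of 18 at 5000 or more and 1 of the 40 of unread level. Over all probe sets of these classes, in this order, 3.71%, 3.41%, 2.69%, 0.926% and 0.419% fell. The count of 16 dropped strongly when either lhp1-4 array was left out, and so did the number of calls over all probe sets. The median of the members was between -0.33 and -0.24 with any 1 array left out.

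In the bpc4 bpc6 background, the lhp1-4 lesion was measured by the triple mutant against bpc4 bpc6. Here 39 members fell (26.0%) and 1 rose (0.667%), where 10.9% of all probe sets fell and 10.5% rose. The median log2 change was -0.27 over the members and -0.05 over all probe sets, and in 91 members (60.7%, against 36.6% of all probe sets) both triple mutant arrays were below both bpc4 bpc6 arrays. The number called, 40, dropped most without bpc4 bpc6 replicate 2, and so did the number of calls over all probe sets. The median of the members was between -0.35 and -0.23 with any 1 array left out. This comparison shares no array with that of lhp1-4 and wild type. Of the 16 members that fell in lhp1-4, 13 also fell here, which is 81.2% of those 16 and 33.3% of the 39, and over all probe sets the same shares were 67.0% and 15.2%. The changes in both backgrounds were negative in 127 of 150 members (84.7%, against 48.1% of all probe sets). Across the 150 members Pearson's r was 0.739 and Spearman's rho 0.668, as a description of members that are measured on the same arrays and can share transcripts, and over all probe sets these were 0.647 and 0.517.

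**Figure D4:**
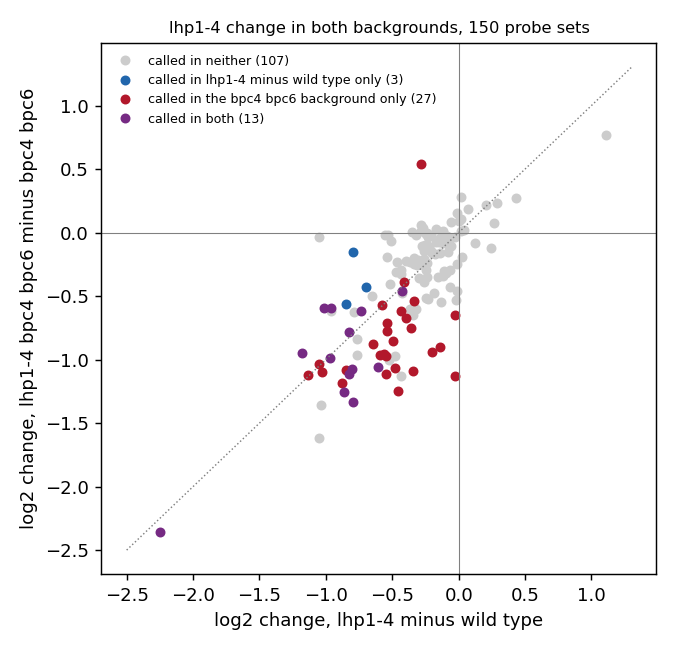
Log2 change of lhp1-4 from wild type (horizontal) and of the triple mutant from bpc4 bpc6 (vertical) for the 150 block probe sets, coloured by where limma called them, with the dotted line marking equal changes. Most points lie below 0 on both axes, 13 are called in both comparisons, and 245029_AT is the point farthest to the lower left.

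The bpc4 bpc6 lesions alone left few calls in the block. Against wild type 1 member fell (0.667%) and 0 rose by limma, where 0.841% of all probe sets fell and 0.964% rose, so the share called was near the background. An unadjusted p under 0.05 was found for 25 members (16.7%), near the 16.4% of all probe sets. The median log2 change of the members was -0.16, against -0.04 over all probe sets. Both bpc4 bpc6 arrays were below both wild type arrays in 70 members (46.7%), against 25.8% of all probe sets. The member that fell was 244906_AT, which was named after its values were seen. It stood at 17.1 and 14.7 in wild type, 13.3 and 12.7 in lhp1-4, 8.41 and 10 in bpc4 bpc6 and 14.3 and 12.5 in the triple mutant, so that bpc4 bpc6 was below every other genotype. Its log2 change in bpc4 bpc6 was -0.79 ± 0.13 (limma adjusted p = 0.0432), a call lost whichever array was left out, at adjusted p from 0.0553 to 0.15. The same probe set is the 1 member that rose from bpc4 bpc6 to the triple mutant, by 0.54 ± 0.13 (limma adjusted p = 0.0273), a call lost without triple mutant replicate 1 (0.121), bpc4 bpc6 replicate 1 (0.131) or either lhp1-4 array (0.0548).

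Within the lhp1-4 background, 4 members fell and 0 rose by limma when the bpc4 bpc6 lesions were added. That is 2.67% falling, where 1.13% of all probe sets fell and 2.18% rose, and 27 members (18.0%) had an unadjusted p under 0.05, against 18.4% of all probe sets. The median log2 change from lhp1-4 to the triple mutant was -0.13 over the members and -0.01 over all probe sets. Both triple mutant arrays were below both lhp1-4 arrays in 73 members (48.7%), against 25.3% of all probe sets. Members of 1000 to 5000 had a median change of -0.47 and those of 100 to 1000 one of -0.38, while the same classes of all probe sets had -0.05 and -0.03. The medians of the other members were -0.12 at 5000 or more, -0.07 under 100 and -0.03 where the level could not be read.

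The 4 that fell were 244972_AT, 244997_AT, 244904_AT and 245018_AT, named, after their values were seen, because they were so few. Probe set 244972_AT stood at 2626 and 3289 in wild type, 2177 and 2522 in bpc4 bpc6, 1565 and 1836 in lhp1-4 and 867 and 996 in the triple mutant. Its pairs of arrays did not overlap between any of the genotypes. Its log2 change was -0.87 ± 0.15 from lhp1-4 to the triple mutant (limma adjusted p = 0.0351) and -1.66 ± 0.15 from wild type (limma adjusted p = 0.00077).

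Probe sets 245018_AT and 244997_AT followed the same order of genotypes. Probe set 245018_AT stood at 1800 and 2130 in wild type, 1578 and 1557 in bpc4 bpc6, 1165 and 1077 in lhp1-4 and 755 and 733 in the triple mutant. From lhp1-4 it changed by -0.59 ± 0.11 on the log2 scale (limma adjusted p = 0.0362). For 244997_AT the values were 1499 and 1643, 1094 and 1270, 966 and 1100, and 620 and 517 in the same order of genotypes, with an overlap of bpc4 bpc6 and lhp1-4 only. Its log2 change from lhp1-4 was -0.87 ± 0.13 (limma adjusted p = 0.0237).

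Probe set 244904_AT differed in that bpc4 bpc6 was not below wild type. It stood at 124 and 139 in wild type, 131 and 149 in bpc4 bpc6, 106 and 100 in lhp1-4 and 69.7 and 62.0 in the triple mutant. Its log2 change from lhp1-4 to the triple mutant was -0.65 ± 0.11 (limma adjusted p = 0.0347) and that from wild type to bpc4 bpc6 was 0.09 ± 0.11 (limma adjusted p = 0.747). All 4 calls were lost when any lhp1-4 or triple mutant array was left out, at limma adjusted p from 0.0562 to 0.223. Without either bpc4 bpc6 array the call of 244997_AT alone was kept, and without either wild type array all 4 were kept. With only lhp1-4 and the triple mutant in the model the 4 calls were lost as well, at limma adjusted p from 0.0593 to 0.0639. Fewer members were called in this comparison without any 1 lhp1-4, bpc4 bpc6 or triple mutant array, and more without either wild type array. Over all probe sets fewer were called whichever array was left out. The changes as deposited had the opposite sign for 244972_AT, 245018_AT and 244997_AT, whose values lie on both sides of 1000.

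**Figure D5:**
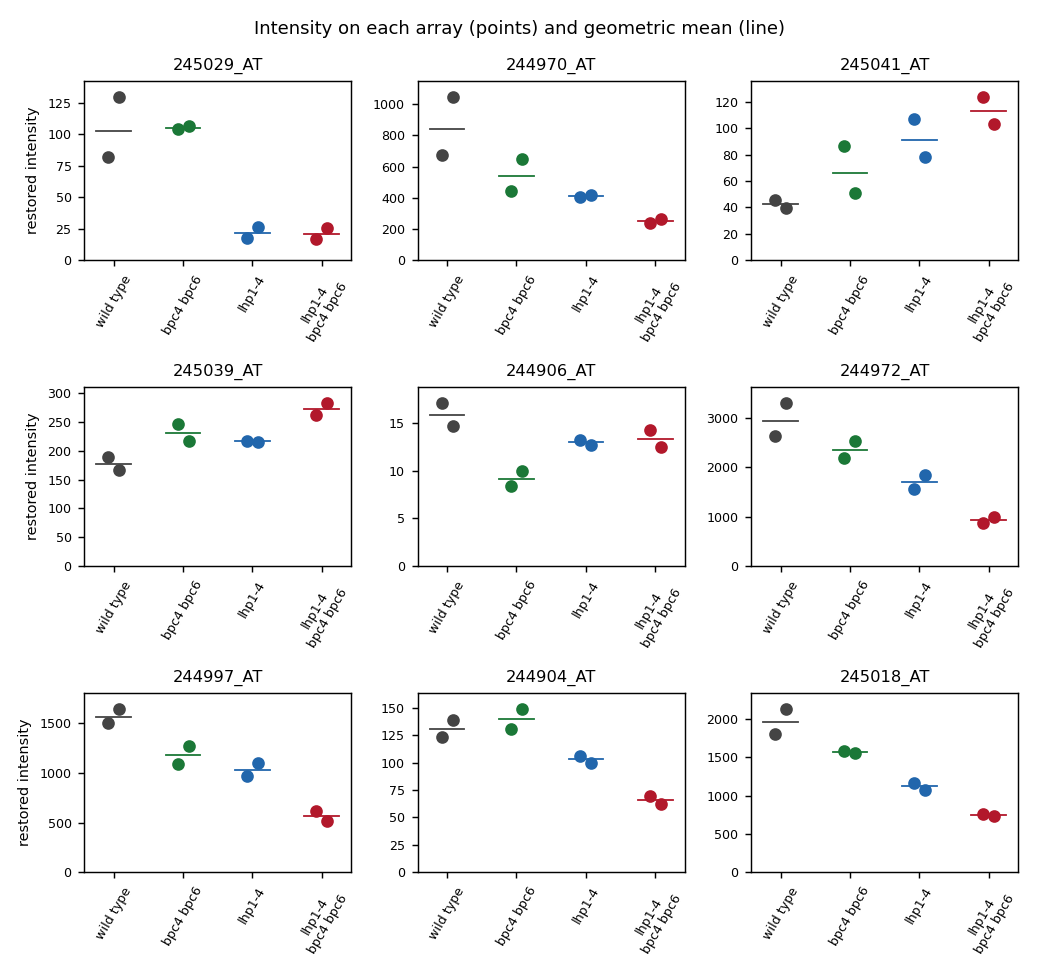
Restored intensity of 9 named probe sets on each array (points) with the geometric mean of each genotype (lines), on linear axes from 0. In 244970_AT, 244972_AT, 244997_AT and 245018_AT the means descend from wild type over bpc4 bpc6 and lhp1-4 to the triple mutant, 245029_AT is low in both genotypes with lhp1-4, 245041_AT and 245039_AT are higher in the mutants, and 244906_AT is lowest in bpc4 bpc6.

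The interaction asked whether the effects of both lesions on the block added up on the log2 scale. It was called by limma in 0 of the 150 members, where it was called in 2.33% of all probe sets, and 13 members (8.67%) had an unadjusted p under 0.05, against 16.5% of all. The median interaction was 0.01 over the members and 0.02 over all probe sets, with quartiles of -0.24 and 0.14 in the members. Departures from additivity in single members were thus not detected with 2 arrays per genotype. By brightness the members' median interaction was -0.23 at 1000 to 5000, -0.05 at 100 to 1000, 0.115 under 100 and 0.03 at 5000 or more. Over all probe sets these medians were -0.05, -0.04, 0.02 and 0.03. At 1000 to 5000 the interaction was negative in 18 of 25 members (72.0%), against 56.5% of all probe sets. The classes were not tested against each other. The smallest interaction p among the probe sets named here belonged to 244904_AT, at -0.74 ± 0.16 (limma adjusted p = 0.0754).

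Members whose suffix marks probes shared with other sequences are given apart. Of the 21 such members 7 fell and 0 rose in the triple mutant, with a median log2 change of -0.46, and of the other 129 members 52 fell and 2 rose, with a median of -0.43. Over all probe sets 12.0% fell and 11.5% rose in the triple mutant, with a median of -0.09. In lhp1-4 the medians of the 2 groups were -0.27 and -0.28, against -0.07 over all probe sets. The difference between these groups of members was not tested.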

How the data were processed

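The authors deposited 1 intensity per probe set and array for 8 one-colour arrays. The intensity values were made with RMA, per the submitters' processing notes, and its version is not given in the sources used here. The deposited values are linear and none reaches 1000. The division by 1000 of every intensity from 1000 upward is an inference from the values, which no label states. They were restored before testing: values under 3 and values of 10 to 100 with 3 decimals were multiplied by 1000, and values of a probe set that lay near one of these (within 5-fold, and at least 20-fold away otherwise) followed it. This scaled values in 50 members, 15 of them in part, left the level of 40 unread and left out 0 members, 30 of all 22746 probe sets and 1 control. As deposited, 10 replicate pairs of members differed over 100-fold, and after restoration 0 did. No independent record of the scale was used here.

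Restored intensities were put on the log2 scale and fitted by genotype with limma 3.58.1 (R 4.3.3). The model took all 8 arrays and 22716 probe sets and had 4 residual and 2.85 prior degrees of freedom. The number of arrays limits the precision, and the median standard error was 0.13 between genotypes and 0.18 for the interaction. The restoration was run on restored values written back in the same divided form, which cannot check whether the inferred scale is right. The fit was run on simulated independent values with the fitted spreads, which does not cover members that share transcripts. Named were the 2 largest called falls and rises over the 6 contrasts, calls where a contrast had 5 or fewer in a direction, and the 5 brightest and dimmest members. Alternatives changed the restoration, array scaling, filter, samples and model. The members, the alternatives and this rule were chosen with earlier results of these data known.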

Additional observations from a re-analysis of the deposited data

Results flagged for a closer look

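In 2 of the named probe sets both arrays moved one way in 1 background and the other way in the other. For 244906_AT both lhp1-4 arrays lay below both wild type arrays, while both triple mutant arrays lay above both bpc4 bpc6 arrays. The interaction on the log2 scale was 0.83 ± 0.18 (SE over 2 arrays a genotype; adjusted p = 0.0798 by limma), which missed the threshold. For 245030_AT both bpc4 bpc6 arrays lay below wild type and both triple mutant arrays lay above lhp1-4, with intensities between 7.98 and 10.3 throughout and an interaction of 0.23 ± 0.15 (limma adjusted p = 0.536).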

How the results depend on the processing

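The direction of every median change from wild type and within the mutant backgrounds was the same under all alternatives run, and the interaction median, near 0, changed sign under some. Called members in the triple mutant against wild type were 45 to 60 with 1 array left out, against 61, and 45 to 76 under the other alternatives, except for the 68 members below. With 1 array left out, counts ran from 2 to 22 for lhp1-4 minus wild type, 0 to 0 for bpc4 bpc6 minus wild type, 17 to 48 for the triple mutant minus bpc4 bpc6, 0 to 7 minus lhp1-4 and 0 to 0 for the interaction. The medians, with the triple mutant minus wild type after bpc4 bpc6 in this order, ran from -0.327 to -0.242, -0.193 to -0.102, -0.472 to -0.40, -0.349 to -0.226, -0.182 to -0.108 and -0.039 to 0.037. Centring each array on its median gave 30 calls for lhp1-4 and 4 for bpc4 bpc6, with medians of -0.348 in lhp1-4 and -0.50 in the triple mutant. Over all 22716 probe sets centring gave 1625 and 585 calls, with medians of -0.143 in lhp1-4 and -0.157 in the triple mutant. Quantile normalization gave the members a median of -0.364 in the triple mutant, against -0.036 over all probe sets. Values as deposited gave 2 calls in bpc4 bpc6 and 7 for the interaction, where 347 and 629 of all probe sets were called. Their medians were -0.32 in the triple mutant against wild type and -0.197 against bpc4 bpc6. They reversed 244970_AT (3.25), 244972_AT (9.10), 244997_AT (4.12) and 245018_AT (9.38), because divided and undivided values then stand side by side. With only the compared genotypes in the model 0 members were called for bpc4 bpc6 and 2 for the triple mutant minus lhp1-4. Neither of these 2 was among the 4 named for it, and over all probe sets 0 and 386 were called. Of the 11738 probe sets of settled level with a mean of at least 50, 86 were members. Called were 26 members for lhp1-4, 5 for bpc4 bpc6, 8 for the triple mutant minus lhp1-4 and 1 for the interaction. Of all 11738, in this order, 1387, 764, 1081 and 741 were called. The members had medians of -0.434 in lhp1-4, -0.738 in the triple mutant, -0.528 against bpc4 bpc6, -0.305 against lhp1-4 and -0.051 for the interaction, with fewer probe sets tested. Chosen after seeing the data, the 68 members whose values were each read on their own gave 0 calls for bpc4 bpc6, 36 for the triple mutant minus wild type and 24 against bpc4 bpc6, with medians of -0.437 in lhp1-4, -0.704, -0.538 and, against lhp1-4, -0.28.

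The replicate numbers were not treated as pairs in the main fit. Differences between replicates 1 and 2 correlated between genotypes at -0.184 to 0.231 over all probe sets and at -0.142 to 0.427 over the members. The 0.427 was that of wild type with bpc4 bpc6, which was 0.208 over all probe sets. These few correlations cannot settle whether the arrays were paired. A fit with the replicate block gave 19 called members for lhp1-4, 0 for bpc4 bpc6, 64 for the triple mutant minus wild type, 44 against bpc4 bpc6 and 5 against lhp1-4. Over all probe sets it called 1397, 470, 5544, 5006 and 788 in this order, against 1366, 410, 5328, 4863 and 753 in the main fit. The replicate block ended the calls of 245018_AT against lhp1-4 (limma adjusted p = 0.0526) and of 244906_AT for bpc4 bpc6 (0.0509).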
